A study of Mus musculus with 12 samples.

Results

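The Hox and Cdx genes encode the homeodomain transcription factors that give body segments their identity along the head-to-tail axis. Rows of the expression table named as a Hoxa, Hoxb, Hoxc or Hoxd gene, or as Cdx1, Cdx2 or Cdx4, were taken by name alone. That gave 11 of 12955 genes, and the 10 described here were 9 Hox genes and 1 Cdx gene, Cdx1. GENCODE M21 lists 39 Hox genes and 3 Cdx genes in the mouse, so most of the family was not analysed here.

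The 12 libraries held poly(A) RNA from mouse primordial germ cell-like cells (PGCLCs), an in vitro counterpart of the founders of the germ line. The cells came from the male J1 embryonic stem cell strain and were sorted with antibodies to CD61 and SSEA1 from embryoid bodies at day 2 or day 6. There were 6 groups of 2 libraries. The groups named EV and OE were each taken at both days, and the other two held day 2 cells treated for 2 days with dTAG13, a small molecule that degrades proteins carrying a matching tag, or with its solvent DMSO. The series title names Tex10 as its subject; the labels do not spell out EV or OE, give no genotype for the dTAG13 cells and do not say whether the 2 libraries of a group came from separate cultures, so p-values measure the spread between libraries, which may be technical.

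Hox genes lie in 4 chromosomal clusters, and in the embryo the genes at one end of a cluster are switched on earlier and further forward than those at the other end. Cdx proteins act upstream of Hox genes in the posterior embryo, where they respond to Wnt, FGF and retinoic acid signals, while Polycomb proteins keep Hox clusters silent in pluripotent cells. Specification of primordial germ cells is known for the repression of somatic genes such as Hox genes by Prdm1 (Blimp1).

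Levels are FPKM (fragments mapped to a gene, scaled to transcript length and library size). Tex10, which checks the labels, stood at 119 and 145 FPKM in day 2 EV against 403 and 378 in day 2 OE, and at 65.7 and 81.5 in day 6 EV against 259 and 269 in day 6 OE. With DMSO it stood at 61.7 and 56.8 FPKM and with dTAG13 at 45.2 and 36.5. The dTAG13 replicate 1 library stood apart, with 2008 genes listed at 0 against 18 to 127 in the other 11 libraries, and 7 of the 10 Hox and Cdx genes were at 0 there. All 12 listed PGC markers were in the table, and their summed level ran from 1701 to 2593 FPKM over the libraries.

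Of the 10 genes, 3 belonged to the HoxA cluster of 11 genes (Hoxa5, Hoxa7 and Hoxa10, which span chr6:52201754-52240854 in the mm10 annotation) and 3 to the HoxB cluster of 10 genes (Hoxb2, Hoxb7 and Hoxb13, chr11:96194316-96354012). Another 2 belonged to the HoxC cluster of 9 genes (Hoxc12 and Hoxc13, chr15:102921103-102938609) and 1 to the HoxD cluster of 9 genes (Hoxd1, chr2:74762980-74765142). They lie towards both ends of the clusters, from the anterior-type Hoxb2 and Hoxd1 to the posterior-type Hoxa10, Hoxb13, Hoxc12 and Hoxc13. Hoxa7 overlaps antisense Hoxaas3 and Hoxb2 overlaps antisense Hoxb3os, while Hoxa5 overlaps Hoxa3 and Gm28308 on its own strand and Hoxaas3 on the other. The strand setting of the counting is not given in the sources used here, so the levels of these 3 genes may include reads of the partners.

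Promoter windows are shown for the 3 HoxA and HoxD genes whose change between the days passed the test in EV (values follow). RefSeq (GRCm38.p6) gave windows of 250 bases before to 50 bases after the start for 4 of the 10 genes, in 5 windows. Capitals mark TTTATG on either strand, a core recognised by Cdx and posterior Hox proteins, which was found in 11.9% of all 32851 windows. Of the 4 genes, 1 held it: Hoxa7, with 2 copies. The motif TGATTNAT, a composite Pbx and Hox core searched on both strands, was in 3.22% of all windows and in 0 of those of the 4 genes.
Hoxa7, chr6:52218524-52218823, minus strand: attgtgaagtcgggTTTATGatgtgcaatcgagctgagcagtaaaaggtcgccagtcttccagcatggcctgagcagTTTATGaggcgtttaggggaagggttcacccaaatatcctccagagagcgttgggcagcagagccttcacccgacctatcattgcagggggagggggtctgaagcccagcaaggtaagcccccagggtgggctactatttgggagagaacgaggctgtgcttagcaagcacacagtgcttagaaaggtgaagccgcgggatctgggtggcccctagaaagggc
Hoxa10, chr6:52240805-52241104, minus strand: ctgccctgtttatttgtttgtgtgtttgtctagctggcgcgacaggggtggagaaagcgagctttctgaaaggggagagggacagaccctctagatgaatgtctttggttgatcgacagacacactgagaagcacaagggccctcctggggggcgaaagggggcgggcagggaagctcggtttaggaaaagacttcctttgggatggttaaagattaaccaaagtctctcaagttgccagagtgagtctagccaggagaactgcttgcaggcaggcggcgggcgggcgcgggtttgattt
Hoxd1, chr2:74762730-74763029, plus strand: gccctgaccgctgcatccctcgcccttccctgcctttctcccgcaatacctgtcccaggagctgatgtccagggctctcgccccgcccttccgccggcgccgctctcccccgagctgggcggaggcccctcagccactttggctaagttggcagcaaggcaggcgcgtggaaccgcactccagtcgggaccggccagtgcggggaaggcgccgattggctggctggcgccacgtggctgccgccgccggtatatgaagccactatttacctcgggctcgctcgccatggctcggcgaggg
The windows differed in base composition. The Hoxd1 window held 29 CpG dinucleotides at 69.7% GC and the Hoxa5 window 29 at 61.7%, while the Hoxa10 windows held 12 and 21 and the Hoxa7 window 9, against a median of 7 over all windows. The Hoxa7 window starts from a RefSeq transcript that begins inside the gene's GENCODE span (chr6:52214491-52221854). A match is only a match of letters, and no binding was measured.

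At day 2 the Hox genes were near the bottom of the table, and by day 6 they were present at low levels. The 9 Hox genes together summed to between 1.45 and 3.76 FPKM in the 8 day 2 libraries, to 21.2 and 15.5 FPKM in day 6 EV and to 22.2 and 26.5 FPKM in day 6 OE. Both day 6 libraries lay above both day 2 libraries for 10 of 10 Hox and Cdx genes in EV, and likewise for 10 of 10 in OE. The share of all genes with this pattern within EV or within OE was not computed, so the 2 counts have no baseline. For 8 of the 10 genes all 4 day 6 libraries lay above all day 2 libraries but dTAG13 replicate 1; this held for 20.6% of all genes in the table and for 29.6% of genes averaging under 5 FPKM. The other 2 were Cdx1 and Hoxc13.

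**Figure D1:**
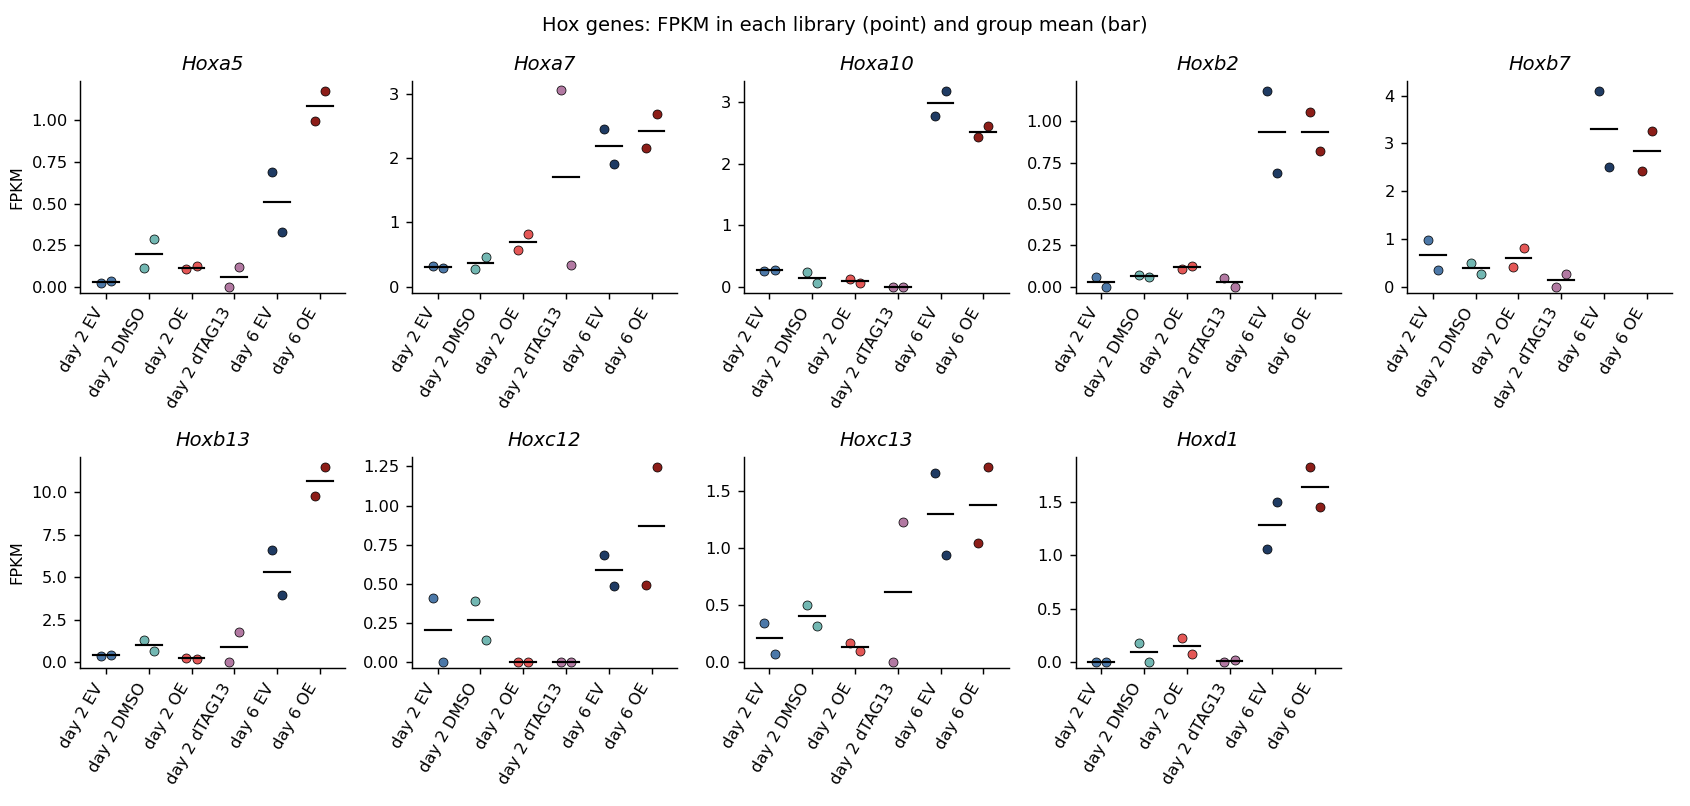
Level (FPKM, linear axis, each gene on its own scale) of the 9 Hox genes in 12 libraries; points are libraries and bars are group means of 2. The day 6 groups stand above the day 2 groups for every gene apart from single dTAG13 libraries, and Hoxb13 reaches the highest level, 11.5 FPKM.

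Hoxb13, the most posterior gene of HoxB, reached the highest level of the Hox genes. Its level was 0.384 and 0.433 FPKM in day 2 EV and 6.59 and 3.97 FPKM in day 6 EV. In OE it was 0.271 and 0.201 FPKM at day 2 and 9.77 and 11.5 FPKM at day 6. The day 6 libraries were all high and the day 2 libraries all low, with no overlap between them. The log2 change of FPKM + 1 from day 2 to day 6 was 2.12 (SE 0.41; adjusted p = 0.00536) in EV and 3.23 (SE 0.41; adjusted p = 0.000392) in OE, by limma with Benjamini-Hochberg adjustment over all 12059 genes tested, as in all tests that follow. Adding 1 before the logarithm understates the change of genes at such low levels.

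Hoxa10, a posterior-type gene best known for its role in the uterus and limb, was also higher at day 6. It was 0.260 and 0.274 FPKM in day 2 EV against 2.77 and 3.18 FPKM in day 6 EV, and 0.129 and 0.0529 FPKM in day 2 OE against 2.43 and 2.62 FPKM in day 6 OE. All 4 day 6 libraries were high and close to each other, and all 8 day 2 libraries were at or below 0.274 FPKM. It rose by 1.65 on the log2 scale in EV (SE 0.16; adjusted p = 0.000208) and by 1.69 in OE (SE 0.16; adjusted p = 8.32e-05).

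Hoxb7, which patterns the trunk, stood at 0.965 and 0.356 FPKM in day 2 EV and at 4.10 and 2.50 FPKM in day 6 EV. In OE it stood at 0.405 and 0.803 FPKM at day 2 and at 2.42 and 3.25 FPKM at day 6. It was low in all day 2 libraries and did not overlap between the days. The rise was 1.37 in EV (SE 0.27; adjusted p = 0.00575) and 1.26 in OE (SE 0.27; adjusted p = 0.0063).

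Hoxa7, its paralogue in HoxA, was at 0.314 and 0.283 FPKM in day 2 EV and at 2.45 and 1.91 FPKM in day 6 EV. In OE it was at 0.573 and 0.809 FPKM at day 2 and at 2.16 and 2.69 FPKM at day 6. The days did not overlap within EV or within OE, while dTAG13 replicate 1 at day 2 reached 3.06 FPKM, above all 4 day 6 libraries. Its change passed the threshold in EV (1.29, SE 0.40; adjusted p = 0.044) and not in OE (1.02, SE 0.40; adjusted p = 0.0822). The difference between those changes was -0.27 (95% interval -1.55 to 1.005; adjusted p = 0.935), so the change was not shown to differ between EV and OE.

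The anterior-type genes Hoxd1 and Hoxb2 also stood higher at day 6. Hoxd1 was listed at 0 in both day 2 EV libraries and at 0.225 and 0.0743 FPKM in day 2 OE, and at day 6 it reached 1.06 and 1.495 FPKM in EV and 1.83 and 1.45 FPKM in OE. No day 2 library came near the day 6 libraries, and the change was 1.18 in EV (SE 0.17; adjusted p = 0.00154) and 1.198 in OE (SE 0.17; adjusted p = 0.000797).

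Hoxb2, a hindbrain gene, lay between 0 and 0.123 FPKM in the 8 day 2 libraries. At day 6 it stood at 1.18 and 0.687 FPKM in EV and at 1.06 and 0.818 FPKM in OE. It rose by 0.90 in EV (SE 0.17; adjusted p = 0.00434) and by 0.79 in OE (SE 0.17; adjusted p = 0.00562), from and to levels around or below 1 FPKM.

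Hoxc13, known for its role in hair and nails, ran from 0 to 1.24 FPKM at day 2, with 0.349 and 0.0710 FPKM in EV and 0.173 and 0.0992 FPKM in OE. At day 6 it stood at 1.66 and 0.941 FPKM in EV and at 1.05 and 1.72 FPKM in OE. The change passed in OE (1.06, SE 0.34; adjusted p = 0.0388) and was 0.92 in EV (SE 0.34; adjusted p = 0.0788). The highest day 2 value was dTAG13 replicate 2.

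Hoxa5 and Hoxc12 reached 1 FPKM in 1 library each and did not enter the main test, which needs 1 FPKM in 2 libraries. Hoxa5, a lung and cervical region gene, was at 0.0227 and 0.0314 FPKM in day 2 EV, 0.687 and 0.331 in day 6 EV, 0.103 and 0.124 in day 2 OE and 0.995 and 1.18 in day 6 OE. Hoxc12 was at 0.413 and 0 FPKM in day 2 EV, 0.684 and 0.488 in day 6 EV, 0 and 0 in day 2 OE and 0.495 and 1.25 in day 6 OE. In limma without the filter, over all 12955 genes, Hoxa5 rose in EV (0.55; adjusted p = 0.0308) and in OE (0.91; adjusted p = 0.00201), and Hoxc12 rose in OE (0.88; adjusted p = 0.0148) with 0.41 in EV (adjusted p = 0.216).

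**Figure D2:**
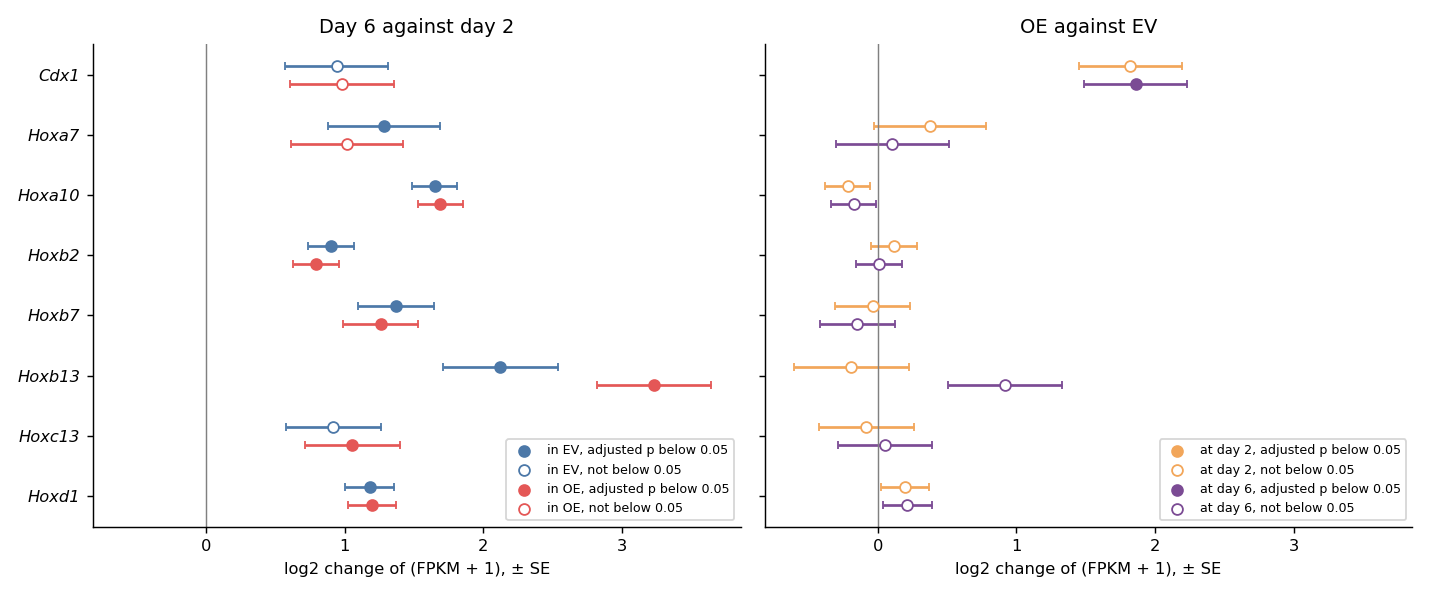
Log2 change of FPKM + 1 with its standard error for the 8 Hox and Cdx genes tested, day 6 against day 2 on the left and OE against EV on the right; filled points have an adjusted p below 0.05. All 16 changes between the days lie above 0, while OE against EV moves past the threshold at 1 point, Cdx1 at day 6. The count of 16 is not evidence about the family. Hoxa7, Hoxa10, Hoxb2, Hoxb7, Hoxc13 and Hoxd1 entered the test only through day 6, which favours changes above 0.

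In all, 6 of the 8 genes tested were higher at day 6 in EV, where 13.3% of all genes tested were, and 6 of 8 in OE, where 17.5% were. None was lower. These counts are not evidence about the family: Hoxa10, Hoxb2, Hoxb7 and Hoxd1 reached 1 FPKM in 0 day 2 libraries and Hoxa7 and Hoxc13 in 1, so these 6 genes entered the test only through day 6, and how the authors chose the 12955 genes is not given in the sources used here. Without the filter, 7 of 10 genes were higher in EV (13.2% of all genes) and 8 of 10 in OE (17.2%). Of the 9 that averaged under 5 FPKM, the same 7 and 8 counts held against 18.6% and 22.0% of all genes at such levels. Their median change was 1.18 in EV and 1.055 in OE, and that of all genes under 5 FPKM was 0.27 and 0.28.

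The passing changes of Hoxa10 and Hoxd1 also passed, in EV and in OE, under every alternative tried. Fewer genes passed when a compared library was left out, which leaves its group with 1: 2 genes passed in EV without day 6 EV replicate 1, and 4 passed in OE without day 2 OE replicate 1, without day 6 OE replicate 1 or without day 6 OE replicate 2. The passing changes then kept 80.1% to 120.7% of their log2 size in EV and 80.6% to 119.4% in OE (Hoxb2 fell under the filter in 1 fit of each), and calls over all genes fell as well, from 2863 to between 1089 and 1506 in EV and from 3890 to between 1863 and 2505 in OE. Calls rose among these genes and over all genes without dTAG13 replicate 1. That library belongs to neither comparison but feeds the shared estimate of spread.

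Cdx1, on chr18:61018862-61036199 in mm10, activates Hox genes in the early embryo and is itself a target of Wnt and retinoic acid signalling. It stood above each of the 9 Hox genes in all 12 libraries. It stood at 2.95 and 3.71 FPKM in day 2 EV (3.33 ± 0.54, SD, n = 2) and at 14.9 and 13.7 FPKM in day 2 OE (14.3 ± 0.88, SD, n = 2). At day 6 it stood at 8.35 and 6.37 FPKM in EV (7.36 ± 1.40, SD, n = 2) and at 26.4 and 32.1 FPKM in OE (29.3 ± 4.01, SD, n = 2). Both OE libraries were above both EV libraries at each day, and both day 2 OE libraries were above both day 6 EV libraries.

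OE against EV gave a ratio of mean levels of 4.28 at day 2 and of 3.98 at day 6. On the log2 scale the day 6 difference was 1.86 (SE 0.37; adjusted p = 0.0264), which passed, and the day 2 difference was 1.82 (SE 0.37; adjusted p = 0.06), which did not. The effects at the 2 days differed by 0.04 (95% interval -1.14 to 1.21; adjusted p = 0.99). Cdx1 was the 1 gene of the 8 called at day 6, where 3.72% of all genes were called in either direction, and 0 of 8 were called at day 2, where 0.846% were. At day 2, 1 of the 8 genes (Cdx1) had an unadjusted p under 0.05.

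The call at day 6 was lost when any of the 4 libraries compared was left out, while the log2 change stayed between 1.69 and 2.03: the adjusted p was 0.117 without day 6 EV replicate 1, 0.226 without EV replicate 2, 0.156 without OE replicate 1 and 0.215 without OE replicate 2. Calls over all genes fell from 448 to between 18 and 69 in the same fits. With 0.1 FPKM added in place of 1, the Cdx1 change was 1.98 (adjusted p = 0.0518). Calls over all genes rose without dTAG13 replicate 1, and Cdx1 then passed at day 2 as well as at day 6.

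Between the days, the ratio of mean Cdx1 levels was 2.21 in EV and 2.05 in OE, and neither change passed (0.94, SE 0.37, adjusted p = 0.0949, and 0.98, SE 0.37, adjusted p = 0.0698). In order of mean level the groups ran day 2 EV, day 2 DMSO (2.69 and 4.59 FPKM), day 2 dTAG13 (9.43 and 3.35 FPKM), day 6 EV, day 2 OE and day 6 OE. The libraries of the first 4 groups overlapped with those of a neighbour in that order, and those of day 2 OE and day 6 OE did not.

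**Figure D3:**
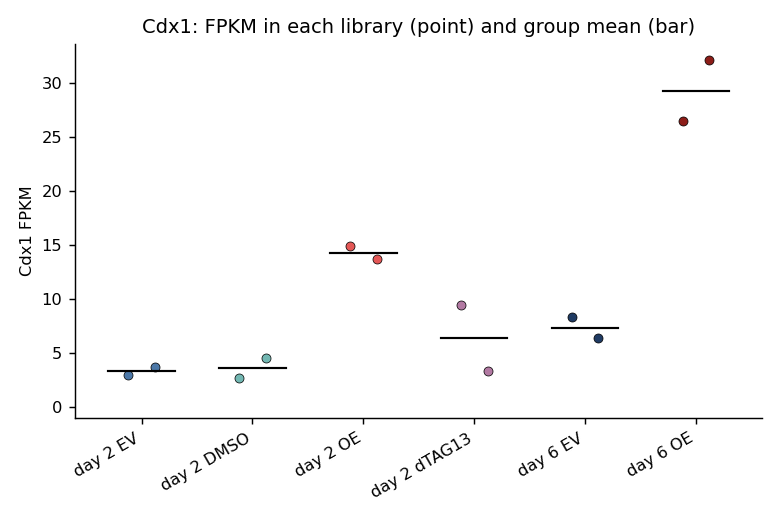
Level of Cdx1 (FPKM, linear axis) in 12 libraries; points are libraries and bars are means of 2. OE libraries (13.7 to 32.1 FPKM) stand above all EV libraries (2.95 to 8.35 FPKM), and the dTAG13 libraries differ from each other, at 9.43 and 3.35 FPKM.

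The Hox genes showed no such difference between OE and EV that passed the test. Among the 7 tested, Hoxb13 had the largest log2 change at day 6, with a ratio of mean levels of 2.01 and a change of 0.92 (SE 0.41; adjusted p = 0.281). Its day 2 change was -0.19 (SE 0.41), and the change of the OE effect between the days was 1.11 (95% interval -0.20 to 2.42; adjusted p = 0.555). Hoxa5, which did not enter the main test, had a ratio of 2.14 and a log2 change of 0.48 without the filter (adjusted p = 0.139). For the other 6 Hox genes tested the log2 changes at day 6 lay between -0.17 for Hoxa10 and 0.22 for Hoxd1.

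No gene of the 8 was called for a difference of the OE effect between the days, where 0.232% of all genes were, and 0 of 8 had an unadjusted p under 0.05. Calls over all genes rose without dTAG13 replicate 1, and Hoxb13 then passed for that difference. Cdx1 and Hoxb13 then passed for OE against EV at day 6.

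With dTAG13, 4 of the 10 genes (Hoxa10, Hoxb2, Hoxb7 and Hoxc12) were lower in both libraries than in both DMSO libraries, 0 were higher in both, and for the other 6 the 2 libraries did not both lie on one side of both DMSO libraries. The share of all genes with these patterns was not computed, and dTAG13 replicate 1 listed 2008 genes at 0. These counts are therefore not a result about these genes. None of the 8 genes was called by limma against DMSO, where 12.2% of all genes were, and 0 had an unadjusted p under 0.05. In replicate 1, Hoxa7 was at 3.06 FPKM, Cdx1 at 9.43 FPKM and Hoxb2 at 0.0528 FPKM, and the other 7 genes were listed at 0. In replicate 2, Hoxa7 was at 0.341 FPKM and Cdx1 at 3.35 FPKM, while Hoxb13 (1.79 FPKM) and Hoxc13 (1.24 FPKM) each stood above both DMSO libraries. The DMSO libraries held 0.272 and 0.464 FPKM of Hoxa7, 1.31 and 0.667 FPKM of Hoxb13 and 0.502 and 0.317 FPKM of Hoxc13.

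Which genes passed depended on the dTAG13 library left out, and each such fit leaves that group with 1 library. Calls over all genes rose in both of these fits, so the calls are not read as a result about these genes. Hoxa10 and Hoxc12 were listed at 0 in both dTAG13 libraries, against 0.230 and 0.0557 FPKM of Hoxa10 and 0.390 and 0.143 FPKM of Hoxc12 with DMSO. Hoxb7 was at 0 and 0.262 FPKM against 0.493 and 0.271, and Hoxb2 at 0.0528 and 0 FPKM against 0.0696 and 0.0595. Over all genes tested the median change with dTAG13 was -0.13, and -0.05 after median-ratio scaling.

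The pair of day 2 control groups, DMSO and EV, differed in 0 of the 8 genes by limma (0.390% of all genes; 0 of 8 with an unadjusted p under 0.05). The largest difference was that of Hoxb13, at 0.48 (95% interval -0.44 to 1.41; adjusted p = 0.857), and Cdx1 differed by 0.07 (95% interval -0.76 to 0.90).

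Some noncoding transcripts of the Hox clusters were also higher at day 6. Of 20 listed, 3 were in the table, all in or beside HoxA, and 2 of the 3 tested were higher at day 6 in EV and in OE. Among all genes tested, 13.3% were higher in EV and 17.5% in OE. Both called transcripts reached 1 FPKM in fewer than 2 day 2 libraries and entered the test only through day 6. The count is therefore not evidence about the clusters. Without the filter, 2 were higher and 0 lower in EV and in OE. Hotairm1, a noncoding RNA of the HoxA cluster, was listed at 0 in 7 of the 8 day 2 libraries and at 1.42 FPKM in dTAG13 replicate 2, above 1 day 6 EV library. At day 6 it stood at 2.79 and 1.37 FPKM in EV and at 6.87 and 2.21 FPKM in OE, a log2 change of 1.58 (SE 0.46; adjusted p = 0.0327) and of 2.33 (SE 0.46; adjusted p = 0.00403). Mira (chr6:52214491-52215288 in RefSeq), which lies inside the GENCODE span of Hoxa7, rose by 0.70 in EV (adjusted p = 0.0302) and 0.76 in OE (adjusted p = 0.0163). Halr1 was at 4.79 and 5.999 FPKM in day 2 EV and 6.32 and 6.72 FPKM in day 6 EV and was not called.

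Most of the tested homeobox genes outside the Hox clusters that mark the head and other axial regions were also higher at day 6. Of 24 listed, 10 were tested. In EV 7 were higher and 0 lower, and the counts were the same in OE. Among all genes tested, 13.3% were higher in EV and 17.5% in OE. Otx2, a forebrain gene that restrains germ cell fate, rose by 1.79 in EV and 1.74 in OE. Msx1 rose by 1.46 in EV, and the ParaHox gene Gsx2 by 1.51 in OE. Of the 10, 3 reached 1 FPKM in fewer than 2 day 2 libraries and entered the test only through day 6, and 2 of these were among the genes called higher in EV and 2 in OE. Without the filter, 7 of 11 were higher and 0 lower in EV, and 6 higher and 1 lower in OE.

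The retinoic acid pathway, which feeds early Hox genes, changed in both directions. Of 19 genes tested, 5 were higher and 2 lower at day 6 in EV, and 7 were higher and 4 lower in OE. The counts over all 12059 genes tested were 1600 higher (13.3%) and 1263 lower in EV. In OE they were 2115 higher (17.5%) and 1775 lower. The list counts were not tested against these. Of the 19, 3 reached 1 FPKM in fewer than 2 day 2 libraries and entered the test only through day 6. Of these 3, 2 were called higher in EV and 2 in OE, with Rbp4 among them. Without the filter the counts were the same. Rbp4, a carrier of retinol, rose by 2.81 in EV and 2.78 in OE. Crabp1, which binds retinoic acid in the cell, rose by 2.00 and 2.22, and at day 6 it stood at 42.5 and 35.9 FPKM in EV and at 69.0 and 74.1 FPKM in OE. Tgm2, a retinoic acid target, rose by 3.07 in OE and was 1.43 higher in OE than in EV at day 6 (adjusted p = 0.0381), the 1 gene of the list called there.

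Of the posterior signals (Wnt, FGF, T-box and Notch genes of the tail bud), 15 of 30 were in the table and 14 were tested. At day 6, 3 were higher and 1 lower in EV, and 2 higher and 4 lower in OE. The counts over all 12059 genes tested were 1600 higher (13.3%) and 1263 lower in EV. In OE they were 2115 higher (17.5%) and 1775 lower. The list counts were not tested against these. Of the 14, 2 reached 1 FPKM in fewer than 2 day 2 libraries and entered the test only through day 6. Of these 2, 1 (Dll1) was called higher in EV and in OE. Dll1, a Notch ligand of the presomitic mesoderm, rose by 1.62 in EV and 1.40 in OE. Lef1, the partner of beta-catenin at Wnt targets, rose by 1.27 in EV and was 1.63 lower in OE than in EV at day 6 (adjusted p = 0.0157). Wnt3a fell by 0.80 in EV. Fgf17 fell by 2.99 in OE, and Gdf3 by 0.87. The Wnt-responsive factor Lef1 and Cdx1 went opposite ways with OE at day 6, where Lef1 stood at 5.09 and 6.99 FPKM in EV and at 1.32 and 1.196 FPKM in OE.

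For the TALE-class cofactors, which bind DNA with Hox proteins, a few members were called in 3 comparisons. Of 10 tested, Meis2 (1.12) and Meis3 (1.02) were higher at day 6 in EV and 0 were called in OE. Among all genes tested, 13.3% were higher in EV and 17.5% in OE. In OE against EV at day 6, Meis3 was 0.80 lower and Tgif1 0.46 higher. With dTAG13, Pbx3 fell by 1.49 and Tgif2 by 1.22, where 8.21% of all genes were lower. Both falls were smaller, and still passed, without dTAG13 replicate 1, at -0.86 for Pbx3 and -0.81 for Tgif2.

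Polycomb subunits, which silence Hox clusters, and trithorax proteins, which keep them active, moved in both directions. Of 31 Polycomb genes tested, 3 were higher and 4 lower at day 6 in EV, and 4 higher and 6 lower in OE. Over all 12059 genes tested, 1600 were higher and 1263 lower in EV, and 2115 higher and 1775 lower in OE. The list counts were not tested against these. Of the 31, 2 entered the test only through day 6, of which 0 were called higher in EV and 1 (Yaf2) in OE. Cbx8 rose by 1.41 in EV and 1.54 in OE, Pcgf6 fell by 1.1 in EV and Eed by 0.78, while Yaf2 rose by 1.17 and L3mbtl2 fell by 1.13 in OE. Ezh2, the H3K27 methyltransferase, was 0.57 higher in OE than in EV at day 6, and L3mbtl2 was 0.59 lower. With dTAG13, 1 was higher and 6 lower, led by Phf19 (-1.78), Cbx2 (-1.20) and Jarid2 (-0.96), where 4.01% of all genes were higher and 8.21% lower. The 2 libraries differed, with Phf19 at 0.00970 FPKM in dTAG13 replicate 1 and 2.41 in replicate 2. Without replicate 1 these 3 falls were -0.90, -0.89 and -0.54 and passed, and 10 Polycomb genes were lower, where 17.0% of all genes were.

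Of 19 trithorax and demethylase genes tested, 2 were higher and 2 lower in EV and 0 higher and 4 lower in OE at day 6. Over all 12059 genes tested, 1600 were higher and 1263 lower in EV, and 2115 higher and 1775 lower in OE. Of the 19, 1 (Kdm6b) entered the test only through day 6. Kdm6b, an H3K27 demethylase, rose by 0.81 in EV. Ash2l rose by 0.43 and Wdr5 fell by 0.43 in EV, and Dpy30 fell by 0.82 in OE. Ash2l was 0.63 lower in OE than in EV at day 6. With dTAG13, 0 were higher and 2 lower, Dot1l (-1.29) and Kmt2d (-0.78), where 4.01% of all genes were higher and 8.21% lower. Dot1l was at 1.27 FPKM in dTAG13 replicate 1 and 4.70 in replicate 2, and without replicate 1 the falls were -0.62 and -0.50 and passed.

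**Figure D4:**
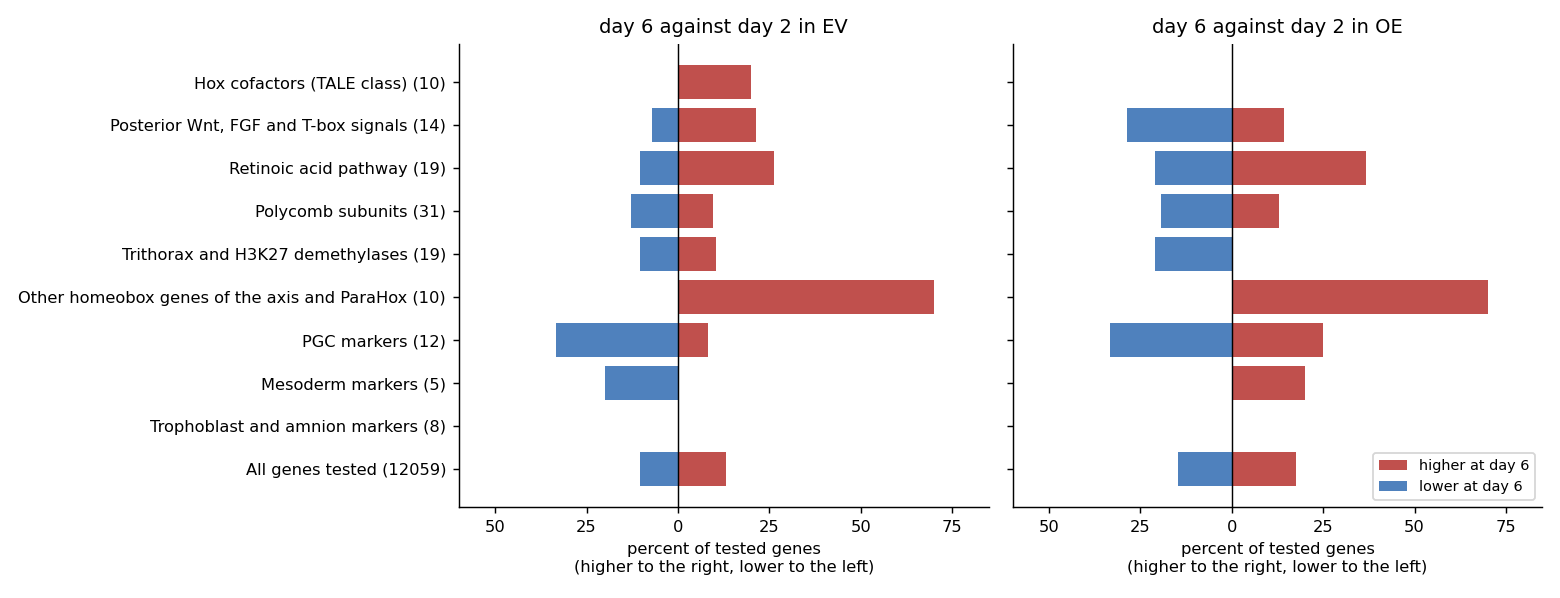
Percent of tested genes called higher (right) or lower (left) at day 6 in EV and in OE, for each list with 5 or more tested genes and for all genes; the number tested stands in parentheses. The other homeobox genes stand at 70 percent higher in both, with 3 of the 10 tested only through their day 6 levels; all genes stand at 13.3 and 17.5 percent.

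Summed markers of other cell types also differed between the days. In bulk libraries, fewer cells of a type and less RNA per cell cannot be told apart. Of 12 endoderm markers, 4 were in the table, and their summed level was 0.873 to 2.36 FPKM at day 2, 7.50 to 8.79 in day 6 EV and 6.40 to 8.27 in day 6 OE; Gata4 and Hnf4a were called higher in EV and Gata4 in OE. Gata6 was at 0.155 and 0.161 FPKM in day 6 EV and at 0.729 and 1.104 FPKM in day 6 OE. Neural markers (4 of 12 in the table) summed to 94.4 and 106.3 FPKM at day 2 and 67.7 and 70.6 at day 6 in EV. In OE they summed to 123.7 and 129.99 against 49.0 and 51.3, with 0 called higher and 2 lower in each. With DMSO and dTAG13 they ran from 46.3 to 81.1. Most of this sum was Tubb3, whose mean went from 94.9 to 64.4 FPKM in EV and from 121.9 to 45.1 in OE. Pax6 and Map2 also had lower means at day 6 in EV and in OE. Nes had higher ones (1.59 to 2.75 FPKM in EV and 2.06 to 3.70 in OE). Mesoderm markers (10 of 17) summed to 93.2 and 97.7 FPKM at day 2 and 48.8 and 59.8 at day 6 in EV. There 0 were called higher and 1 lower (Tcf15). In OE they summed to 87.6 and 99.975 against 72.5 and 123.65, with 1 higher (Snai1) and 0 lower. The fall of the sum in EV was that of Tcf15, whose mean went from 89.0 to 41.0 FPKM. Most other markers of the list had higher means at day 6 in EV. These were Eomes (1.93 to 4.04 FPKM), Mesp2 (1.32 to 4.52), Tbx6, Hand1, Mixl1, Snai1 and Twist1, while Kdr and Meox1 were lower. Trophoblast and amnion markers (9 of 12) summed to 13.9 and 14.03 FPKM at day 2 and 16.6 and 17.02 at day 6 in EV. In OE they summed to 9.94 and 10.3 against 21.4 and 21.5, with 0 called in either. With DMSO and dTAG13 they ran from 21.9 to 49.1. The members of this list went both ways. In EV the means of Ascl2 (1.09 to 5.24 FPKM), Eomes, Hand1, Esx1 and Bambi were higher at day 6. Those of Gcm1 (2.31 to 0.188), Gata2, Gata3 and Krt7 were lower. In OE the means of Gcm1 and Gata3 were lower and the rest higher. The days did not overlap for any of these 4 lists in EV, and in OE they overlapped for the mesoderm list alone. Of the 12 PGC markers, 1 was higher and 4 lower at day 6 in EV (Kit rose by 1.26, while Nanos3 fell by 2.42 and Dppa3 by 1.64). In OE 3 were higher and 4 lower (Kit rose by 1.89, while Nanos3 fell by 1.82 and Ifitm3 by 1.24). The counts over all 12059 genes tested were 1600 higher and 1263 lower in EV, and 2115 higher and 1775 lower in OE. The part of these cell types in the Hox levels was not tested.

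The genes most like each Hox or Cdx gene over the 12 libraries, by Pearson r of log2(FPKM + 1), followed the days for Hox genes and the OE groups for Cdx1. For Cdx1 they were Spag5 (r = 0.957), Bcl2l13 (0.954) and Unc119 (0.947). For Hoxa10 they were H2-D1 (0.988), Dock6 (0.988) and Adm (0.983), for Hoxb13 Pygl (0.989), Rusc2 (0.985) and Ccdc68 (0.985), and for Hoxd1 Stradb (0.985), Gm2a (0.982) and Sohlh2 (0.982). Hoxb7 was closest to Ppp1r1b (0.982), H2-K1 (0.978) and Pdgfrb (0.972), Hoxb2 to Wfdc10 (0.979), H2-Ab1 (0.978) and Ltbp3 (0.976), and Hoxa7 to B2m (0.973), Ccdc136 (0.968) and Adamts10 (0.967). Hoxc13 was closest to Cdc42ep3 (0.947), Tldc1 (0.934) and Hint2 (0.930). Among the 10 genes themselves, r was 0.962 for Hoxa10 with Hoxd1 and ran from 0.275 to 0.701 for Cdx1 with the 9 Hox genes. All these are descriptions over libraries of 6 groups, which share the contrast between the days.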

How the data were processed

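Poly(A) RNA of sorted mouse PGCLCs was measured in 12 libraries, 6 groups of 2 taken from the labels; the title of one library spells its compound differently, and its treatment field (dTAG13) was used. Per the submitters' processing notes, FastQC 0.10.1, Trim Galore 0.6.3, cutadapt, STAR 2.7.6a, Cufflinks 2.2.1 and mm10 were used; the annotation, the filters and the strand setting are not given in the sources used here. The deposited values are FPKM by the authors with 1 added, inferred from their digits (7 or more digits in 90.1% of values from 1.1 to 2 and in 0% of those from 2 to 10); the 1 was subtracted. Depth is unknown, so low values carry no counting interval; summed FPKM ran from 550230 to 673435.

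Genes with 1 FPKM in 2 libraries (12059) were tested in limma 3.58.1 (R 4.3.3) on log2(FPKM + 1), pseudocount 1, with a trended prior, in one model of 6 groups (6 residual and 3.86 prior degrees of freedom). A Benjamini-Hochberg adjusted p below 0.05 over all genes was a call. The script was tested on simulated data. Hox and Cdx genes called anywhere, or averaging 5 FPKM in a group, were given in full; from each list, up to 3 called genes with the largest change per comparison were named. The genes most like a called one were the 3 with the highest Pearson r among those averaging 5 FPKM in a group. Of the genes that match the rule or stand in the lists, a few are not reported here by name. The genes and lists were chosen with earlier results of these data known. Alternatives were another pseudocount, no filter, 2 other scalings, a replicate block, only the groups compared, and each library left out. Positions are from GENCODE M21 and RefSeq (GRCm38.p6).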

Additional observations from a re-analysis of the deposited data

How the results depend on the processing

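All 13 passing changes of Hox and Cdx genes kept their direction in all 138 alternatives run on them. This lends them no support, because the libraries compared did not overlap. Leaving a library out or adding another pseudocount could therefore not turn a direction. Among these genes, Hoxa7, Hoxa10, Hoxb2, Hoxb7, Hoxc13 and Hoxd1 entered the test only through day 6. For OE against EV at day 2, where 0 genes passed, 1 (Cdx1) did after median-ratio scaling, after quantile normalization and with only the groups compared, and 0 to 1 did with a library left out. At day 6 (1 gene), 0 passed with 0.1 FPKM added, 2 with only the groups compared, and 0 to 2 with a library left out. For the difference of these effects (0 genes), 1 (Hoxb13) passed with only the groups compared and 0 to 1 with a library left out. For dTAG13 against DMSO (0 genes), 0 to 3 passed with a library left out. From day 2 to day 6, 3 genes passed in EV (6 in the main test) and 4 in OE (6) with 0.1 FPKM added, and 2 to 8 in EV and 4 to 8 in OE with a library left out. DMSO against EV gave 0 genes in each alternative. A library left out leaves its group with 1, which is assumed to vary like the others. Over all genes, the count for OE against EV at day 6 (448) ran from 325 to 3495 over the other settings and from 18 to 69 with one of its 4 libraries left out; it was 3044 without dTAG13 replicate 1. For day 6 against day 2 these counts were 2863 in EV (2251 to 5244, 1089 to 1506 and 6267) and 3890 in OE (3276 to 7339, 1863 to 2505 and 7084). For OE against EV at day 2 they were 102 (84 to 1382, 1 to 19 and 1688), for the difference 28 (21 to 1194, 2 to 7 and 1336) and for DMSO against EV 47 (39 to 302, 9 to 15 and 972). For dTAG13 the count was 1473, with 0 to 1482 over settings, 203 to 7223 with a library left out and 2796 without dTAG13 replicate 1. The cause of these differences was not tested. The replicate numbers share only a number: the correlation of same-numbered deviations was 0.252 for day 2 and day 6 in EV, 0.136 for the days in OE, 0.133 for EV and OE at day 2, -0.116 at day 6 and -0.105 for DMSO and dTAG13, and ran from -0.135 to 0.252 over all pairs of groups. With the replicate block, 5 Hox and Cdx genes passed at day 6 in EV, 5 in OE, 1 (Cdx1) for OE at day 6 and 0 in the other 4 comparisons. With the numbers crossed, an alternative chosen after seeing the data, 325 genes were called for OE at day 6 and 1414 for dTAG13.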
